A study of Homo sapiens with 18 samples.

Results

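The expressed ribosomal protein (RP) pseudogenes were examined as a group in breast cancer cells depleted of WDR5. Members were chosen by their symbol, that of an RP gene followed by P and a number, and selected on their raw counts, which had to sum to at least 2000 over the 18 libraries. This rule kept 35 of 1047 RP pseudogene symbols, of which 740 had at least 1 count, in a table of 58815 genes. The rule used only the summed count over both hairpins, so it did not use the change after knockdown. The members derive from 29 parent genes, with 25 members from large subunit (RPL) genes and 10 from small subunit (RPS) genes, and 5 parents have several members.

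The RNA came from 3 derivatives of the triple-negative line MDA-MB-231 selected for metastasis to lung (LM2), brain (BrM3) and bone (BoM). Each line carried a doxycycline (DOX)-inducible hairpin, either a control (shCtrl) or one against WDR5 (shWDR5), and both arms received DOX at 1 μg/mL for 3 days. There were 3 libraries in each of the 6 groups, harvested at different passages of the same lines, so the error described here is that between passages. The design has a single WDR5 hairpin, and the 3 lines share 1 origin, so the lines are not independent tumours.

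WDR5 is a scaffold of complexes that modify histones, and RP genes are among the genes it is known to bind. An RP gene encodes 1 protein of the large or small ribosomal subunit and is among the most strongly transcribed genes of a dividing cell. A processed pseudogene arises when a spliced mRNA is copied back into the genome, so it lacks introns and the promoter of its parent. RP genes have left more such copies in the human genome than any other family, and most are silent. A transcribed copy usually relies on a promoter near the place where it landed, and a read from the parent mRNA that matches both loci cannot be assigned to one of them.

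Most members were close in sequence to the parent over the part that aligned. In GENCODE release 44 on GRCh38, 33 of 35 had 1 exon, 30 were annotated as processed pseudogenes, 3 as transcribed processed and 2 as transcribed unprocessed pseudogenes. With gaps counted, identity to the parent transcript over that part ranged from 85.8% for RPL32P3 to 100% for RPL41P1, RPS28P7, RPL39P3 and RPL21P16. The median was 98.8%, and 26 members reached 98%. The aligned part covered from 9.04% (RPL14P1) to 94.1% (RPL6P27) of the parent transcript. An open frame as long as that of the parent was present in 15 of 35, and the shortest relative to the parent had 16 of 176 codons (RPL18AP3). For each member, the share of its 50-base stretches found again elsewhere in the genome was counted. That share was 0.00% for RPL32P3 and 8.78% for RPS18P12, and it was 100% for the 4 identical copies named above, whose counts are the least certain because no 50-base stretch tells the loci apart. The parent had the best alignment among the RP genes for all 35.

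The copies of RPL13A, RPL26, RPL32, RPS18 and RPL41 carry the comparisons that follow, so a stretch of the coding part is shown for each. Bases that differ from the parent are in capitals. Apart from RPL41, each is the stretch of its length without gaps that has the most differences from the parent. For the RPL13A copies these were the differences of RPL13AP20. The differences are therefore denser in these stretches than over the whole copy. The RPL13A stretch covers coding bases 214 to 303. The pseudogenes lie at chr10:96750501-96750590 on the plus strand (RPL13AP5), chr12:12875712-12875801 on the plus strand (RPL13AP20) and chr13:54441013-54441102 on the minus strand (RPL13AP25). RPL13AP20 differed from the parent at 10 of these 90 bases, RPL13AP25 at 5 and RPL13AP5 at 1, and 1 difference was common to the 3 copies. Over the whole alignment the mismatches were 20 of 609 columns for RPL13AP20, 14 of 612 for RPL13AP25 and 3 of 612 for RPL13AP5.
RPL13A: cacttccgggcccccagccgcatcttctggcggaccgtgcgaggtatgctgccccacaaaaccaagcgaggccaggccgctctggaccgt
RPL13AP5: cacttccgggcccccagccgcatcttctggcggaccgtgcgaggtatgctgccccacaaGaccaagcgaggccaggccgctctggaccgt
RPL13AP20: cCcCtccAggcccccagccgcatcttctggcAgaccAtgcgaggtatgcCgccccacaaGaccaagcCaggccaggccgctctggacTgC
RPL13AP25: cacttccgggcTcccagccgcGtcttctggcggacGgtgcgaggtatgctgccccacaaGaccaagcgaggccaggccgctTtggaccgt

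The RPL26 stretch covers coding bases 328 to 417, matched to chr5:56504656-56504745 on the minus strand, and RPL26P19 differed at 6 bases. The RPS18 stretch covers coding bases 227 to 316, matched to chr17:14705219-14705308 on the minus strand, and RPS18P12 differed at 7 bases. Over the whole alignment RPL26P19 had 8 mismatches in 438 columns and RPS18P12 had 16 in 459.
RPL26: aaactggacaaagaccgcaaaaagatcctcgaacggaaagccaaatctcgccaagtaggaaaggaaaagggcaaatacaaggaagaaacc
RPL26P19: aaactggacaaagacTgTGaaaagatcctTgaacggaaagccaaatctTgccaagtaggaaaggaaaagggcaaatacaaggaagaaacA
RPS18: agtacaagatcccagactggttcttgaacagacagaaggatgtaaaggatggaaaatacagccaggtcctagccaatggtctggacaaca
RPS18P12: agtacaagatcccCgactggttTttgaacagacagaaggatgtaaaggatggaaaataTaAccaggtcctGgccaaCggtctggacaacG

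RPL32P3, annotated on the minus strand at chr3:129396218-129397109 with 2 exons, differed from coding bases 92 to 151 of RPL32 at 4 bases. The coding bases 1 to 75 of RPL41, which has the shortest coding part of the parents (25 codons), are repeated without a change by RPL41P1. That copy lies at chr20:21755270-21755344 on the plus strand.
RPL32: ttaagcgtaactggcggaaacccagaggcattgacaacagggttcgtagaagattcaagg
RPL32P3: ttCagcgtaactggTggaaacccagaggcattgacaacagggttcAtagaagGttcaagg
RPL41: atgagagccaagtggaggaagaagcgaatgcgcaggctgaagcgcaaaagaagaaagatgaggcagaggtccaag
RPL41P1: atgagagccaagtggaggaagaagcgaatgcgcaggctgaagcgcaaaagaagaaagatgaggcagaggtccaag

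The libraries held 17485841 to 119667013 counts. Libraries of the same group differed from each other by more than counting noise, so each was kept as a replicate. The targeted gene WDR5 was reduced, from 125 ± 11.1 CPM (counts of a gene scaled to library size, SD, n = 3) to 23.1 ± 2.24 in LM2, with log2 fold changes of -2.43 there, -1.97 in BrM3 and -2.24 in BoM, and its shWDR5 and shCtrl libraries did not overlap in any line. Of the MDA-MB-231 markers, VIM (1495 to 2231 CPM) and CD44 (498 to 765 CPM) were high. KRT8 (194 to 447 CPM) and KRT18 (263 to 501 CPM) were present. EPCAM (4.39 to 10.1 CPM) was low, and ESR1 and PGR stayed under 1 CPM. ERBB2, which the marker list set as low or absent, was at 41.5 to 83.4 CPM, above EPCAM. Member reads made up 0.0168% to 0.0396% of the counts. The lowest share belonged to shWDR5 replicate 1 of BrM3, which was also the shallowest library, and the other 17 ranged from 0.0231%. Results that move without that library are given in both forms.

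Summed counts ranged from 2089 for RPL26P19 to 17130 for RPL13AP5, with a median of 4589. Just inside the threshold were RPS18P12 (2288), RPS13P2 (2213) and RPL26P19 (2089), and just outside were RPL7AP66 (1820), RPS7P11 (1691) and RPL12P14 (1655). The other members with the largest sums were RPL23AP82 (12882), RPS27AP16 (11662), RPL41P1 (11308), RPL4P4 (10713) and RPL6P27 (9746). All 35 passed the filter on low counts, among 12081 genes tested. The median standard error of a member's log2 fold change lay between 0.284 and 0.292 in the lines, against 0.141 for that of the parents.

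The calls of members in each single line are given beside the shares of all genes. A member without a call was not shown to be unchanged. By edgeR's quasi-likelihood test with Benjamini-Hochberg adjustment over all tested genes, 3 members were down-regulated in LM2 (RPS18P12, RPL26P19 and RPS3AP6) and 0 up-regulated, where 4.78% of all genes were called down and 1.48% up. In BrM3, RPL5P34 and RPS18P12 were down-regulated and RPL14P1 and RPL23AP7 up-regulated, against 7.87% and 2.87% of all genes. In BoM, RPS18P12, RPL26P19 and RPL13AP20 were down-regulated and 0 members up-regulated, against 10.7% and 5.41%. RPS3AP6, RPL14P1 and RPL23AP7 are named because the counts are small and were chosen after their values were seen. The members' shares (8.57% down in LM2, 5.71% down and 5.71% up in BrM3, 8.57% down in BoM) rest on at most 3 members, and no result about the group is read from them. Several other settings called more members, and some called the same number or fewer. With each line fitted alone there were 2 down in LM2 and 1 down in BrM3. These are 5.71% and 2.86% of members, against 1.85% and 8.13% of all genes. A correction for GC content gave 6 down and 1 up in LM2 (17.1% and 2.86% of members, against 8.095% and 8.17% of all genes) and 7 down and 2 up in BoM (20.0% and 5.71%, against 12.7% and 15.5%). DESeq2 gave 7 down and 0 up in LM2 (20.0% and 0%, against 6.07% and 3.39% of all genes) and 6 down and 1 up in BoM (17.1% and 2.86%, against 11.5% and 8.88%). With a replicate block BoM, where the 3 same-numbered pairs of libraries each deviated together with a correlation over 0.1, had 6 down and 3 up, against 15.02% and 11.2% of all genes. Without shWDR5 replicate 1 of BrM3 there were 5 down and 1 up in LM2, against 5.96% and 2.23% of all genes. There were then 0 down and 2 up in BrM3 (RPL14P1 and RPL4P4), against 8.21% and 3.67%, and 6 down and 1 up in BoM, against 11.9% and 7.36%.

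The log2 fold change was below 0 in all 3 lines for 14 members, above 0 in all 3 for 13 and of mixed sign for 8. The shWDR5 and shCtrl libraries did not overlap for 11 members below and 3 above in LM2, against 14.6% and 10.7% of all genes. These numbers were 8 and 3 in BrM3, against 19.7% and 15.8%, and 6 and 0 in BoM, against 17.3% and 12.8%. For the members, the shares below were 31.4% (LM2), 22.9% (BrM3) and 17.1% (BoM), those of BrM3 and BoM near those of all genes. The members' shares above were 8.57%, 8.57% and 0% in that order, each under that of all genes. The median log2 fold change of the members was -0.16, -0.23 and 0.03 in LM2, BrM3 and BoM, and that of all tested genes was between -0.01 and 0.02.

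Averaged over the 3 lines in the same edgeR fit, a contrast added after the data were seen, 12 members were down-regulated and 4 up-regulated, 34.3% and 11.4% of the group, against 19.9% and 15.6% of all genes. The 12 were RPL5P34, RPS18P12, RPL7P9, RPL6P27, RPL26P19, RPS3AP6, RPS3AP26, RPL13P12, RPL7AP6, RPL13AP20, RPL24P4 and RPL32P3, and the 4 were RPL21P16, RPL14P1, RPL23AP7 and RPL23AP82. The parent was down-regulated for 11 of the 12 and up-regulated for 1, RPL13AP20, while all 4 up-regulated members had an up-regulated parent. Of the 19 members not called, 5 had a down-regulated parent, 8 an up-regulated parent and 6 a parent that was not called. The up-regulated count moved to 9 without shWDR5 replicate 1 of BrM3, where 15.9% of all genes were called up, and the down-regulated count stayed at 12. The up-regulated count was 9 with the GC correction (25.7% of members), against 31.0% of all genes. Without a filter on low counts 11 members were up-regulated and 14 down-regulated (31.4% and 40.0%). These stand against 5.54% and 8.22% of the 41236 genes then tested, and RPL32P3 was no longer called. With 1 library left out, the calls of RPL24P4 and RPL23AP7 were each lost in 3 of 18 fits.

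The difference in response between lines was tested directly. With adjusted p-values, 0 members differed between any 2 lines by edgeR, where 0.00828%, 0.00% and 0.00828% of all genes did for BrM3 against LM2, BoM against LM2 and BoM against BrM3. At an unadjusted p under 0.05 there were 1, 2 and 1 members in that order, against 2.91%, 5.17% and 2.89% of all genes. RPL41P1 made up the first count, with a difference of 1.01 ± 0.45 (SE) in log2 fold change, and RPL13AP20 the last, with -0.74 ± 0.27.

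Each pseudogene was next set beside its parent. Of the 29 parents, LM2 had 12 down-regulated and 1 up-regulated, BrM3 had 10 and 3, and BoM had 11 and 5. The full list of 79 RP genes had 33 that fell and 2 that rose in LM2, against 28 and 6 for BrM3 and 33 and 12 for BoM. The mean log2 fold change over the lines had the same sign in pseudogene and parent for 33 of 35 pairs, the exceptions being RPL13AP20 and RPS2P5. Across the 35 pairs the 2 quantities correlated with Pearson's r = 0.88 and Spearman's rho = 0.91, given as a description, because all pairs share the same libraries, several share a parent, and reads may be shared between the loci. Within single lines r was 0.92 (LM2), 0.79 (BrM3) and 0.81 (BoM).

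**Figure D1:**
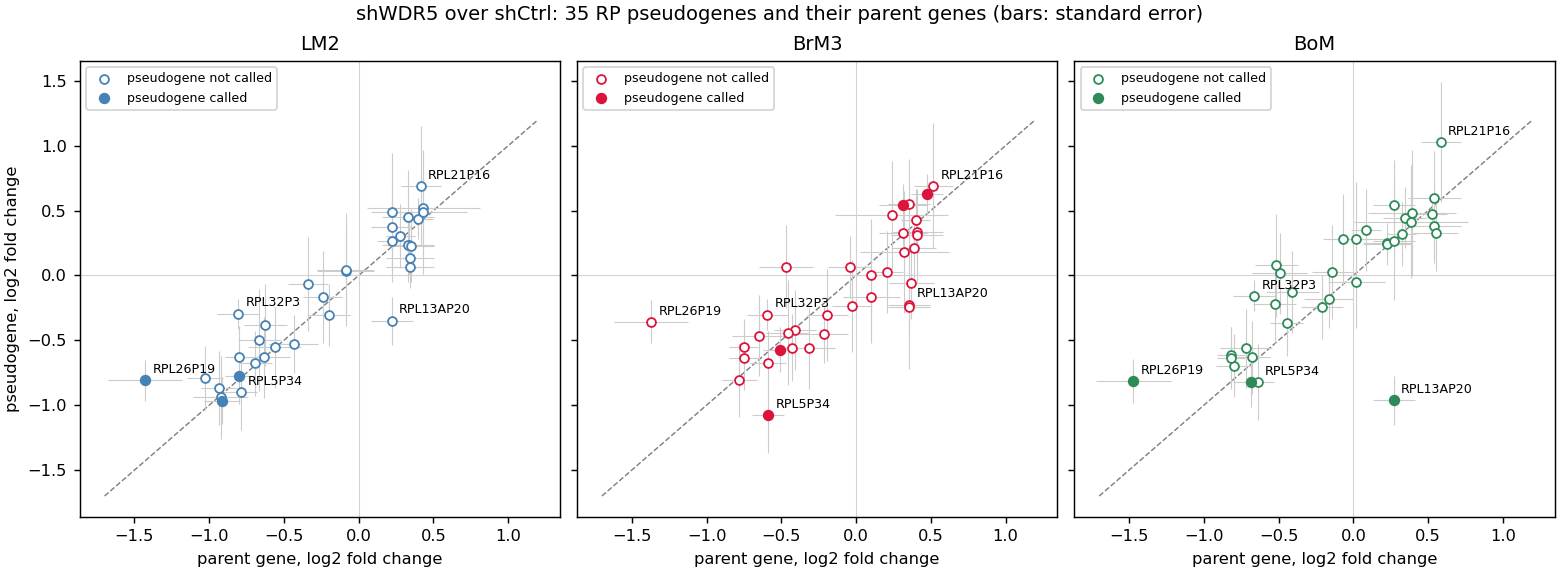
Log2 fold change (shWDR5 over shCtrl) of each of the 35 pseudogenes on the vertical axis against that of its parent gene on the horizontal axis, in LM2, BrM3 and BoM, with bars for the standard error, a dashed line of equal change and filled points for members called by edgeR. Most points lie along the dashed line, and RPL26P19 lies above it and RPL13AP20 below it in all 3 panels.

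The change of each pseudogene relative to its parent was tested on log2((pseudogene count + 0.5)/(parent count + 0.5)) within each library, by a two-sided exact permutation test of the mean over the 3 lines with hairpin labels permuted within each line. There were 8000 assignments, the smallest p they allow is 0.00025, and p-values are unadjusted over 35 pairs. At p under 0.05, 2 pseudogenes rose relative to the parent (RPL26P19 and RPL32P3), 1 fell (RPL13AP20), and 32 did not pass. Without shWDR5 replicate 1 of BrM3, 5 rose and 1 fell. The 2 and the 1 are 5.71% and 2.86% of the pairs, and the 5 are 14.3%. Among 115 pseudogenes outside the rule with a summed count above the same threshold, of which 3 derive from the RP genes RPLP0 and RPSA, 6.96% rose and 14.8% fell relative to their parents by the same test, and 6.96% and 11.3% did without that library. The difference between these shares was not tested, and a p that misses the threshold does not show equal change. The 115 were pseudogenes of any annotated type, with no floor on the count of the parent. Every parent of a member had a summed count of at least 23680, so the sets are not matched. The mean difference was above 0 for 17 pairs and below 0 for 18, with a median of -0.01, and for 14 of the 35 its sign changed when 1 library was left out.

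**Figure D2:**
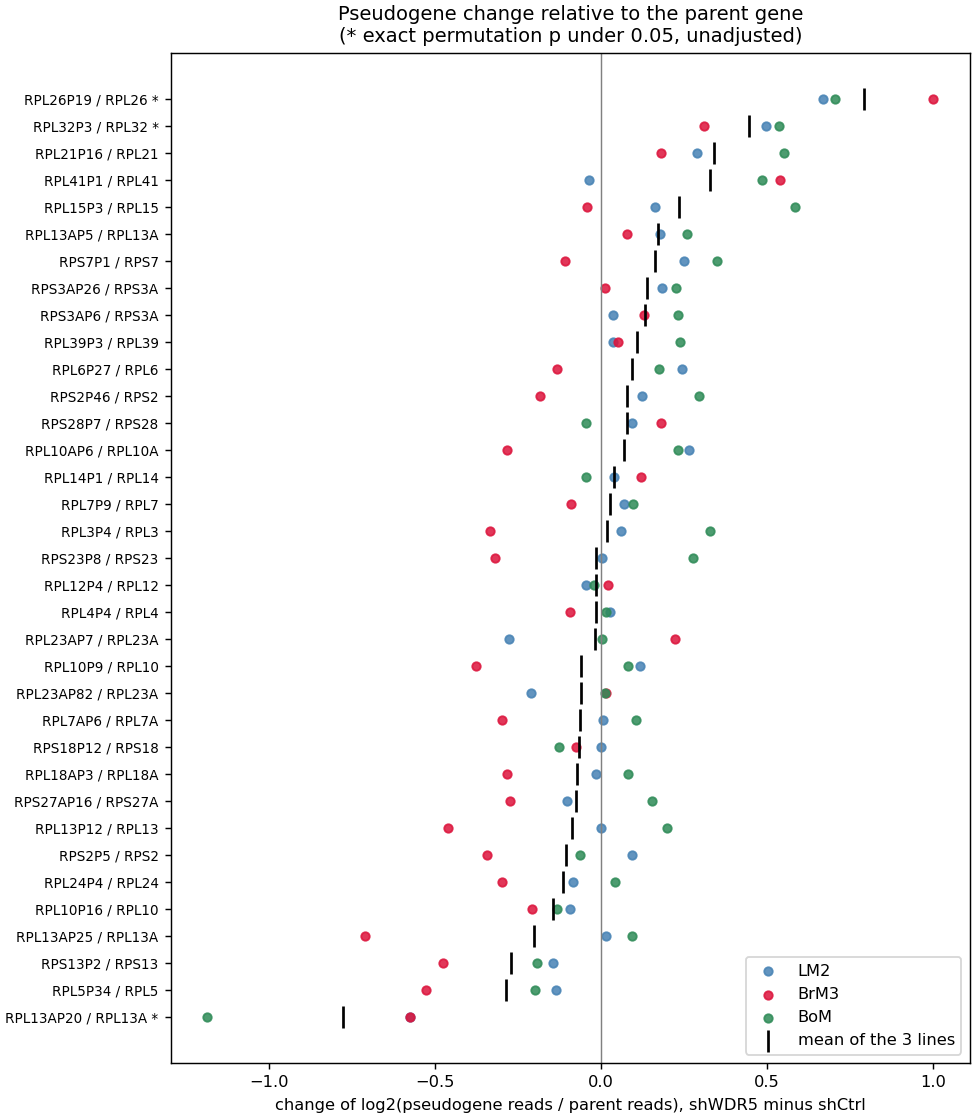
Change in log2(pseudogene reads / parent reads) from shCtrl to shWDR5 for the 35 pairs, ordered by the mean of the 3 lines (black ticks), with 1 point per line. RPL26P19 (0.79) and RPL13AP20 (-0.78) stand at the ends, and for many other pairs the 3 lines lie on both sides of 0.

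RPL13A encodes a large subunit protein that is also released from the ribosome in the interferon response, and it is the parent with the most members. In LM2 it was at 1227, 1359 and 1518 CPM in shCtrl and 1553, 1452 and 1782 in shWDR5. In BrM3 it was at 979, 1079 and 945 CPM in shCtrl and 1077, 1377 and 1388 in shWDR5, and in BoM at 1125, 1414 and 1173 in shCtrl and 1218, 1471 and 1787 in shWDR5. The groups overlapped in each line, and the log2 fold changes of 0.22 ± 0.14 (SE), 0.36 ± 0.14 and 0.27 ± 0.14 did not pass in any line. On the average over the lines the gene was up-regulated by 0.28 ± 0.08 (edgeR adjusted p = 0.0118).

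RPL13AP20 moved the other way. It was at 4.99, 5.31 and 4.07 CPM in shCtrl and 3.30, 4.13 and 3.77 in shWDR5 of LM2, and at 3.23, 3.96 and 2.74 CPM in shCtrl and 2.45, 3.36 and 2.64 in shWDR5 of BrM3. In BoM the shCtrl libraries were at 5.93, 8.63 and 5.69 CPM and the shWDR5 libraries at 3.25, 3.57 and 3.66. The groups overlapped in LM2 and BrM3 and did not in BoM, where the log2 fold change was -0.96 ± 0.19 (edgeR adjusted p = 0.0023). Reads of RPL13AP20 fell from 0.540% to 0.238% of RPL13A reads in BoM, from 0.350% to 0.235% in LM2 and from 0.329% to 0.221% in BrM3. Relative to RPL13A the mean change was -0.78 (exact permutation p = 0.0005), below 0 in 3 of 3 lines, and p stayed at or under 0.00075 when any 1 library was left out. RPL13AP20 is 96.7% identical to RPL13A, 26.8% of its 50-base stretches occur elsewhere, and its longest open frame has 42 codons against 203.

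The other copies of RPL13A did not pass that test. RPL13AP5, with the largest summed count of the members, was at 17.6, 20.7 and 33.9 CPM in shCtrl and 27.8, 23.6 and 43.2 in shWDR5 of LM2, at 11.3, 14.9 and 17.7 and then 10.2, 28.3 and 25.2 in BrM3, and at 13.1, 20.1 and 16.8 and then 16.2, 26.4 and 30.3 in BoM. Its mean change relative to RPL13A was 0.17 (exact permutation p = 0.287). RPL13AP25 ranged from 1.597 to 11.99 CPM, both within shWDR5 groups, and its change relative to RPL13A was -0.20. Within the family, RPL13AP5 rose relative to RPL13AP20 by 0.95 (exact permutation p = 0.00375, unadjusted over 7 pairs of pseudogenes of 1 parent). RPL13AP5 and RPL13AP25 differed by 0.37 (exact permutation p = 0.203), and RPL13AP20 and RPL13AP25 by -0.58 (exact permutation p = 0.106). In the other 4 families the exact permutation p ranged from 0.0975 for RPS2P5 and RPS2P46 to 0.92 for RPS3AP6 and RPS3AP26.

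**Figure D3:**
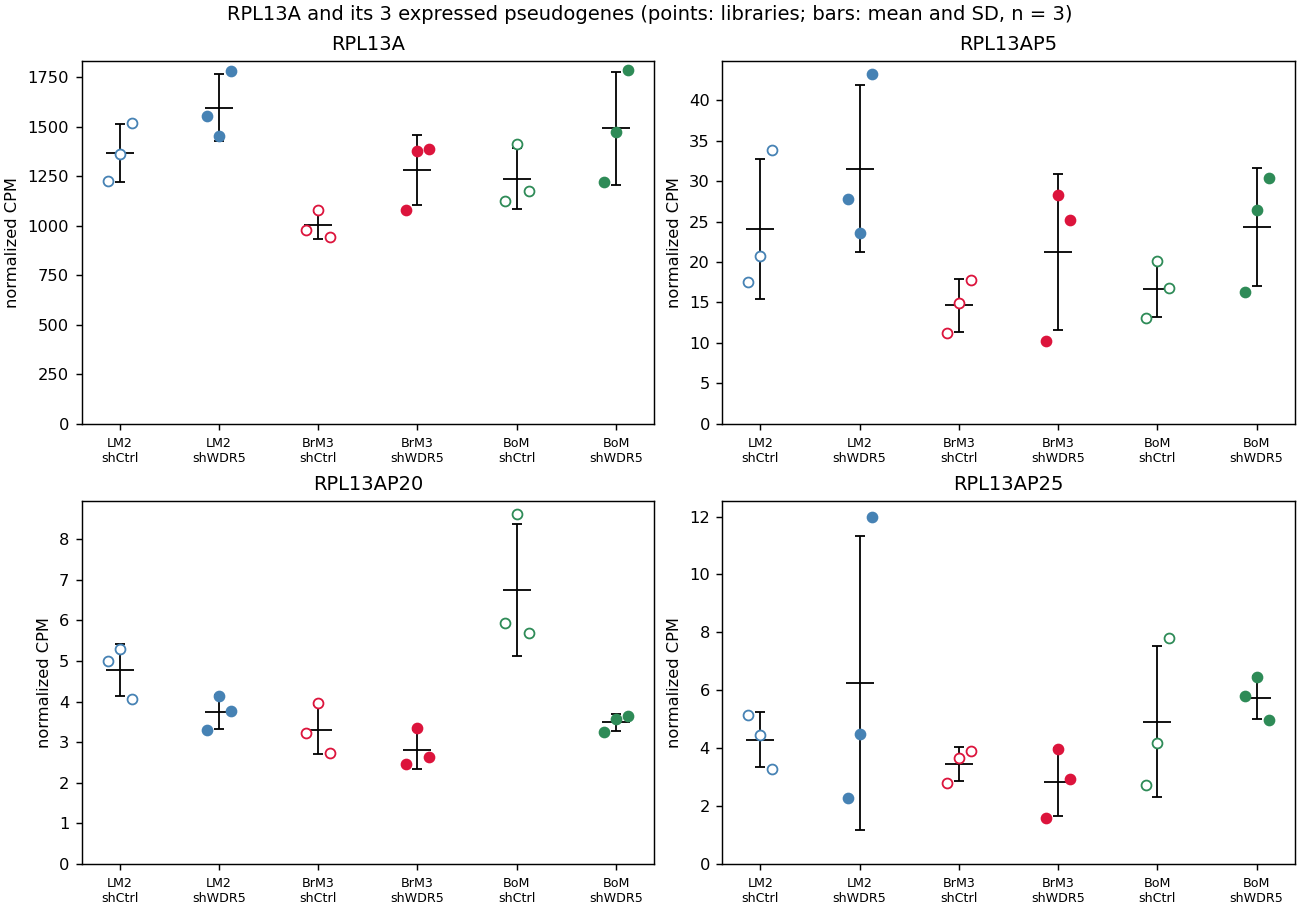
Normalized CPM of RPL13A and its 3 expressed pseudogenes in each library by line and hairpin, with open points for shCtrl, filled points for shWDR5, and bars for the mean and SD of 3 libraries, on axes that start at 0. RPL13AP20 is lower in every shWDR5 library of BoM than in any shCtrl library of that line, while RPL13A overlaps between hairpins in each line.

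RPL26, a large subunit protein that also binds the p53 mRNA, had the largest fall among the 29 parents on the average of the lines. It went from 46.3, 49.4 and 32.4 CPM to 10.7, 19.4 and 17.5 in LM2, from 47.2, 56.8 and 34.7 to 15.3, 22.3 and 15.95 in BrM3, and from 44.3, 45.8 and 45.7 to 22.01, 13.8 and 13.0 in BoM. The hairpins did not overlap in any line, and the log2 fold changes were -1.43 ± 0.25 (SE), -1.37 ± 0.25 and -1.47 ± 0.25. RPL26 had a summed count of 23680, the lowest of the parents, and 14.5% of its exon bases are also exon bases of another gene annotated on the same strand, ENSG00000263809. How reads of that overlap bear on the RPL26 value was not tested.

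RPL26P19 fell less than RPL26. It went from 3.71, 3.43 and 3.99 CPM to 1.89, 2.01 and 2.59 in LM2, from 2.55, 3.08 and 2.61 to 2.00, 2.06 and 2.31 in BrM3, and from 3.02, 3.01 and 4.03 to 1.798, 1.74 and 2.12 in BoM. The shWDR5 libraries were below the shCtrl libraries in all 3 lines. The log2 fold changes in LM2, BrM3 and BoM were -0.81 ± 0.16, -0.36 ± 0.17 and -0.81 ± 0.17, with edgeR adjusted p-values of 0.00549, 0.188 and 0.0035. Relative to RPL26 it rose by 0.79 (exact permutation p = 0.00125), above 0 in 3 of 3 lines, and its reads went from 8.84% to 14.1% of those of RPL26 in LM2, without scaling for length. The result held with each library left out, at p of 0.00325 or less.

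RPL32, another large subunit protein, fell from 903, 872 and 919 CPM to 529.5, 497 and 516 in LM2, and its log2 fold changes in LM2, BrM3 and BoM were -0.80 ± 0.14, -0.59 ± 0.14 and -0.66 ± 0.14. RPL32P3 went from 9.45, 10.1 and 9.69 CPM to 8.14, 8.72 and 6.87 in LM2, from 8.62, 7.76 and 6.98 to 6.39, 6.32 and 6.27 in BrM3, and from 7.78, 7.40 and 6.60 to 6.84, 5.97 and 6.77 in BoM. The hairpins separated in LM2 and BrM3 and overlapped in BoM, and the log2 fold changes of -0.29, -0.30 and -0.16 did not pass in any single line. Relative to RPL32 it rose by 0.45 (exact permutation p = 0.0005), above 0 in 3 of 3 lines. RPL32P3 had the lowest identity of the members with gaps counted, 85.8%, with 24 gap columns in an alignment of 275. Without gaps it was 94.0% identical, above RPL23AP82 (92.1%) and RPL23AP7 (92.3%). The gene model of RPL32P3 overlaps exons of another gene, ENSG00000290993, not analysed here.

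**Figure D4:**
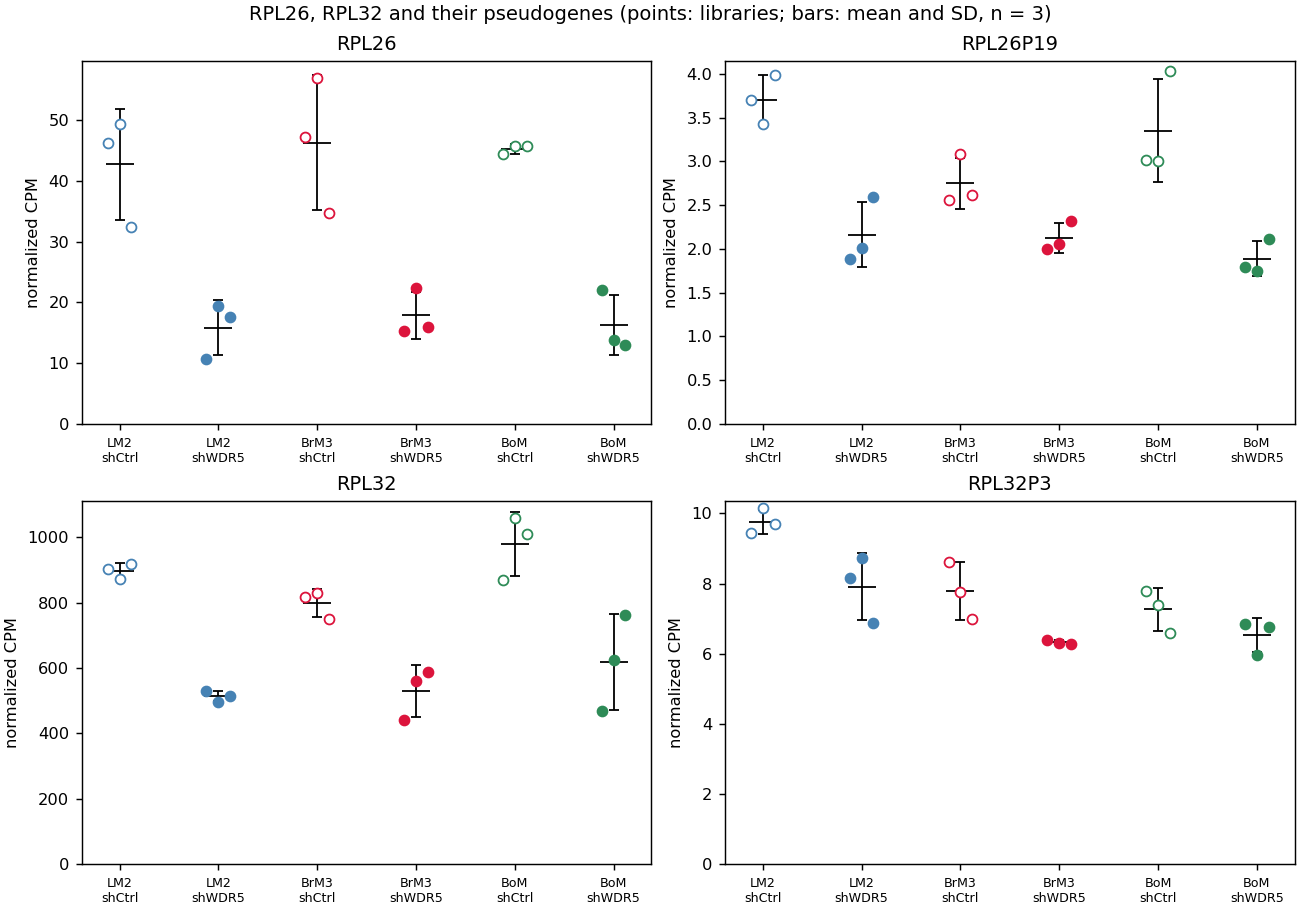
Normalized CPM of RPL26, RPL26P19, RPL32 and RPL32P3 in each library by line and hairpin, with open points for shCtrl, filled points for shWDR5, and bars for the mean and SD of 3 libraries, on axes that start at 0. RPL26 and RPL32 fall in each line, and the points of RPL26P19 and RPL32P3 fall by a smaller proportion.

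RPS18P12 was the member called in all 3 lines, where 3.25% of all genes were down-regulated in the 3 lines and 0.753% up-regulated. RPS18, a protein of the small subunit head, went from 1851, 1982 and 2154 CPM to 1114, 1093 and 969 in LM2. RPS18P12 went from 2.65, 3.90 and 3.45 CPM to 1.79, 1.62 and 1.801 in LM2, from 4.43, 5.78 and 3.80 to 2.62, 3.09 and 3.57 in BrM3, and from 2.94, 2.95 and 3.07 to 1.77, 1.78 and 1.501 in BoM. All shWDR5 libraries were below all shCtrl libraries of the same line. The log2 fold changes were -0.97 ± 0.18 (edgeR adjusted p = 0.0037), -0.57 ± 0.17 (adjusted p = 0.0435) and -0.82 ± 0.19 (adjusted p = 0.00755), and those of RPS18 were -0.91, -0.51 and -0.69. The BrM3 call was lost in 12 of 18 fits that left out 1 library, and the LM2 and BoM calls in 0. Relative to RPS18 the change was -0.07 (exact permutation p = 0.544), and 8.78% of the 50-base stretches of RPS18P12 occur elsewhere.

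Of the copies that fell with their parent, RPL5P34 had the lowest average. RPL5 encodes a large subunit protein that binds the 5S rRNA, and its log2 fold changes in LM2, BrM3 and BoM were -0.79, -0.59 and -0.64. RPL5P34 went from 4.01, 3.61 and 2.67 CPM to 1.09, 1.71 and 2.98 in LM2, from 4.62, 4.99 and 4.63 to 1.82, 2.99 and 1.89 in BrM3, and from 3.45, 5.23 and 4.38 to 3.06, 2.52 and 1.73 in BoM. The hairpins overlapped in LM2 only. RPL6P27 also fell on the average of the lines, by 0.72 ± 0.14 (SE), against 0.81 for RPL6. RPS3AP6 and RPS3AP26 fell by 0.65 and 0.63, against 0.79 for RPS3A, a small subunit protein. RPS3AP26 lies on the same strand in an intron of BAIAP2L1, whose log2 fold changes were -0.33, -0.78 and -1.13 in LM2, BrM3 and BoM, with edgeR calls in BrM3 and BoM. Its part in the RPS3AP26 value was not tested.

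Among copies whose parent rose, RPL14P1 went from 10.9, 10.5 and 10.1 CPM to 15.2, 13.4 and 14.1 in LM2, from 10.1, 9.23 and 10.0 to 11.2, 17.1 and 16.7 in BrM3, and from 10.7, 12.3 and 14.9 to 14.1, 18.8 and 19.4 in BoM. The hairpins separated in LM2 and BrM3 and overlapped in BoM, and the average log2 fold change of 0.51 ± 0.09 (SE) was close to the 0.46 ± 0.06 of RPL14. RPL21P16, a full copy of the RPL21 coding sequence, rose by 0.80 ± 0.27 on average against 0.51 ± 0.08 for RPL21, and its call was lost in 8 of 18 fits that left out 1 library. RPL23AP82 rose by 0.24 ± 0.06 and RPL23AP7 by 0.28 ± 0.09, against 0.29 ± 0.09 for RPL23A. The members named by large sums or by their difference from the parent without a call on the average were RPS27AP16 (0.30), RPL4P4 (0.35), RPL10P16 (0.32), RPS13P2 (0.17), RPL13AP5 (0.49), RPL13AP25 (0.17), RPL15P3 (-0.29) and RPL41P1 (-0.29), all log2 fold changes.

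RPL41P1, the identical copy of the RPL41 coding sequence, went from 15.7, 10.2 and 20.5 CPM to 10.1, 8.18 and 5.63 in LM2, and was at 13.0, 7.76 and 13.2 and then 8.95, 11.2 and 14.99 in BrM3, and at 16.4, 24.9 and 25.4 and then 13.0, 27.2 and 27.3 in BoM. Relative to RPL41 the change was 0.33 (exact permutation p = 0.0678), and this p lay between 0.0105 and 0.159 when 1 library was left out. All of its 50-base stretches occur elsewhere.

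The size of the difference from the parent was similar in members with much and with little sequence shared with other loci. The 13 members with under 60% of 50-base stretches found elsewhere had a median absolute difference of 0.0866 on the log2 scale, and the 22 members at or above 60% had 0.0996. Across the 35 members Spearman's rho between the shared percentage and the absolute difference was -0.11. Taken with its sign, the difference was below 0 for 10 of those 13 and above 0 for 14 of those 22, including all 4 members at 100%, and rho was 0.49. The split of signs depended on the estimator. As a difference of edgeR log2 fold changes it was 8 below 0 of the 13 and 16 above 0 of the 22, with rho 0.50, and with the GC correction 7 and 15, with rho 0.46. These correlations are descriptions over pairs that share libraries. The 3 pairs that passed the exact permutation test had 0.00% (RPL32P3), 26.8% (RPL13AP20) and 66.8% (RPL26P19) of their stretches elsewhere. These percentages count any other locus, so the split at 60% is not one on sequence shared with the parent. RPL23AP82 and RPL23AP7 were above 60% but had only 0.714% of their stretches in RPL23A. For RPL26P19 the share found in its parent was 50.4%. For other members, such as RPS18P12 (8.78%), both shares were the same. The difference was not set against the share found in the parent.

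**Figure D5:**
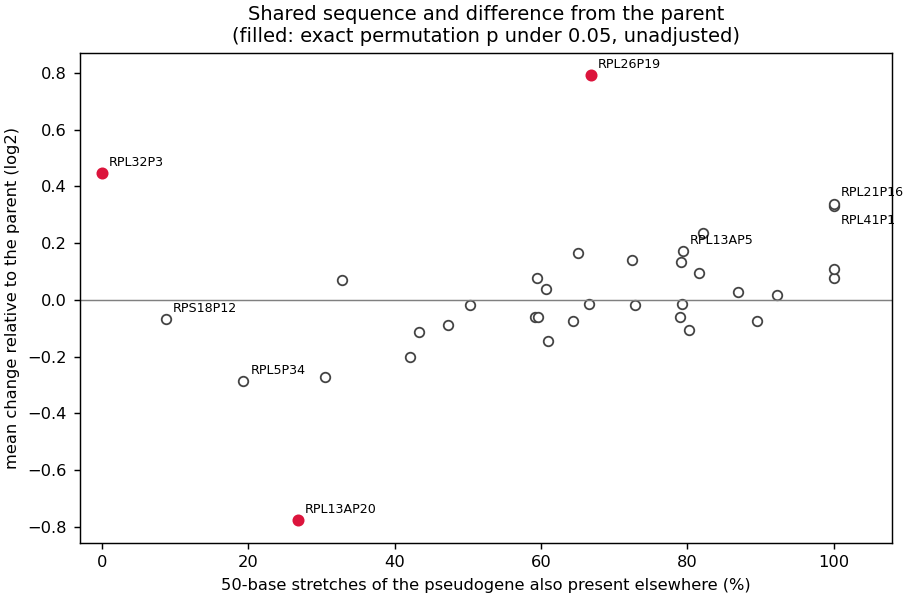
Mean change relative to the parent (log2, vertical axis) against the percentage of 50-base stretches of the pseudogene found elsewhere in the genome (horizontal axis) for the 35 members, with filled points for an exact permutation p under 0.05. Below 60% 10 of 13 points lie under 0, at 60% and above 14 of 22 lie over it, and all 4 at 100% lie over it.

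The parent was also compared with the other RP genes as a reference for each pseudogene, by the SD over the 18 libraries of the log2 ratio of pseudogene to RP gene. The parent was the closest of the 79 RP genes for 8 members and among the closest 5 for 24, with a median rank of 3. RPL26P19 had its parent at rank 46, with RPL15 closest, and RPL13AP20 at rank 33, with RPS3A closest. RPS23P8 had its parent at rank 34, although its change relative to RPS23 was -0.01 (exact permutation p = 0.959). RPL32P3, which passed that test, had its parent at rank 16. The rank is drawn from the same log2 ratios as that test, so it is not separate support. These ranks are a description over libraries that all genes share.

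In the annotation 21 members overlapped no other gene, 7 lay on the same strand as another gene and 9 opposite one. RPL18AP3 lies on the same strand in an intron of TXNRD1, whose log2 fold changes were 0.18, 0.04 and 0.11 with 0 calls. Genes that hold a named member on the opposite strand, MAP3K13 with RPL4P4 and ZYG11B with RPS13P2, were called in 0 lines.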

How the data were processed

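Poly(A) RNA of 18 libraries was sequenced by the authors as paired-end, stranded libraries, aligned to hg38 and counted per gene with STAR 2.7.0 at default settings, as the study's methods state. The deposited counts are raw whole-number counts. The strand setting, and how reads that align to several loci were counted beyond those defaults, are not given in the sources used here. Titles of the samples gave line and hairpin. The labelled cell lines are the same but read BrM2 for BrM3, the source labels name another line for 12 of 18 libraries, and count columns coded ad were matched to shCtrl through the titles. The submitters' processing notes also name CASAVA 1.8.2 and DESeq2. The deposited table of the authors' log2 fold changes and adjusted p-values was not used. The study added spike-in RNA, and the count table used here has 0 rows for spike-ins.

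Counts were fitted with edgeR 4.0.16 (R 4.3.3) in 1 quasi-likelihood model of 6 groups with TMM scaling, on 12081 genes above a normalized count of 145.7, the threshold given by the HTSFilter criterion recomputed here. A call is a Benjamini-Hochberg adjusted p under 0.05. CPM are TMM-normalized. DESeq2 1.42.0, other filters, a GC correction (loess span 0.5), a replicate block, each line alone, each library left out, a pseudocount of 5 and a summed count of 5000 were tried as alternatives.

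Coordinates, exons and sequences came from GENCODE release 44 on GRCh38 and may differ from the gene models the authors counted, which matters most for RPL23AP82, RPL23AP7 and RPL32P3. RPL6 has no symbol in the table and was matched by its identifier. Alignments used Biopython 1.88 and Python 3.11.15. The members and gene lists were chosen with earlier results of these data known. Members are named by summed count (the 6 largest), by the 6 largest rises and 6 largest falls among those called in at least 2 lines, by difference from the parent (the 6 largest in each direction), by a family of at least 3 members, or by their place beside the threshold. Parents, host genes of named members and WDR5 are named with them. Members outside this rule, among them RPS3AP6, RPS3AP26, RPL14P1, RPL23AP7 and RPL18AP3, were named after their values were seen. The p-values measure the spread between passages.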

Additional observations from a re-analysis of the deposited data

How the results depend on the processing

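The fall of RPL26P19 and RPS18P12 in LM2 and BoM and of RPL13AP20 in BoM kept its call in all 18 fits with 1 library left out, and the 3 pairs that parted from their parents passed in all 18 and with a pseudocount of 5. With each line fitted alone, RPL26P19 and RPS18P12 lost their LM2 calls. Other counts of members depended on the settings. Members down-regulated and up-regulated in LM2 numbered 7 down with DESeq2 (20.0% of members, against 6.07% of all genes), 10 and 1 without a filter on low counts (28.6% and 2.86%, against 1.71% and 0.628%), 6 and 1 with a GC correction (17.1% and 2.86%, against 8.095% and 8.17%), and 1 down at a summed count of 5000. In BrM3 there were 4 down with DESeq2 and without a filter (11.4%, against 9.36% and 2.68% of all genes), 1 down with filterByExpr and with the line fitted alone (2.86%, against 5.91% and 8.13%), and 0 down and 1 up at a summed count of 5000. In that line 3 were up with DESeq2, without a filter and with filterByExpr (8.57%, against 5.28%, 0.989% and 2.735%). The line fitted alone gave 2 up (5.71%, against 4.82%). The GC correction gave 2 down and 3 up there (5.71% and 8.57%, against 10.6% and 13.7%). In BoM there were 6 down and 1 up with DESeq2 (17.1% and 2.86%, against 11.5% and 8.88%), 1 up with filterByExpr (2.86%, against 4.15%), 8 and 5 without a filter (22.9% and 14.3%, against 3.88% and 1.77%), 7 and 2 with the GC correction (20.0% and 5.71%, against 12.7% and 15.5%), and 0 down at a summed count of 5000. The counts at a summed count of 5000 come from the main fit. There 4.78%, 7.87% and 10.7% of all genes were down-regulated in LM2, BrM3 and BoM, and 1.48%, 2.87% and 5.41% up-regulated. At that sum 1 pseudogene rose and 0 fell relative to the parent.

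With a replicate block, members called down and up numbered 8 and 1 in LM2 (against 8.01% and 3.86% of all genes), 6 and 3 in BrM3 (against 12.6% and 6.29%), and 6 and 3 in BoM (against 15.02% and 11.2%). With the GC correction and replicate block together they numbered 10 and 3 (against 12.3% and 16.2%), 7 and 5 (against 14.5% and 22.5%), and 8 and 10 (against 16.2% and 23.7%). On the average over the lines the block gave 15 down and 10 up (against 24.8% and 22.2%), and both together 14 and 12 (against 23.4% and 36.9%). Deviations of same-numbered libraries correlated between -0.18 and 0.73, with a mean of 0.361 against -0.195 for different numbers. All 3 pairs of BoM were over 0.1, but not every pair of LM2 and BrM3, so the numbers were not taken to pair the libraries over the 3 lines. With the block the RPL41P1 log2 fold change in BoM was -0.0323. The mean difference of RPL4P4 from its parent was 0.017 as a difference of edgeR log2 fold changes and 0.032 with the GC correction, against -0.016 by the ratio of counts. By either of these estimators 21 of 35 differences were above 0, against 17 by the ratio.

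With 1 library left out, the members called ranged from 2 to 5 down and 0 to 1 up in LM2, 0 to 2 down and 0 to 3 up in BrM3, and 3 to 6 down and 0 to 2 up in BoM. The pairs that rose relative to the parent ranged from 2 to 5 and those that fell from 1 to 3. The 5 came without shWDR5 replicate 1 of BrM3, which added RPS3AP6, RPS3AP26 and RPL39P3, and the 3 without shWDR5 replicate 3 of LM2, which added RPL5P34 and RPS13P2. Without the first of these libraries 5 members were down and 1 up in LM2, 0 down in BrM3, and 6 down and 1 up in BoM, and without the second 5 were down in LM2. The 6 down in BoM also came without shCtrl replicate 1 of BoM. Some uncalled values changed sign, namely the log2 fold changes of RPL10P16 (-0.00423 to 0.649), RPL41P1 (-0.16 to 0.22), RPS13P2 (-0.25 to 0.13) and RPS27AP16 (-0.0685 to 0.472) in BrM3, of RPL13AP25 (-0.30 to 0.91) and RPS13P2 (-0.0652 to 0.456) in LM2, and of RPL13AP25 (-0.0261 to 0.732), RPL15P3 (-0.24 to 0.45) and RPL41P1 (-0.16 to 0.30) in BoM. The difference from the parent changed sign for 14 of 35 members, among them the named RPL4P4 (-0.0812 to 0.0852), RPS18P12 (-0.119 to 0.00726) and RPS27AP16 (-0.154 to 0.0270). The cause of these changes was not tested. The members' median standard error in LM2 was 0.284, against 0.137 for all tested genes.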
